A study of Mus musculus with 6 samples.

Results

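The flavin-containing monooxygenase genes Fmo1, Fmo2, Fmo4 and Fmo5 were followed in mouse liver between a young and an adult age. They were chosen by gene name and are 4 of the 32597 genes in the authors' deposited table. All libraries came from whole liver of wild type male C57BL/6 mice, an inbred laboratory strain, and no animal received a treatment according to the labels. The young animals are given as 3 weeks in the sample titles, 3 to 4 weeks in the age field and 1 month in the series title, and the adults as 6 months. Each age had 3 libraries, and each library held RNA pooled from 3 mice, so that 9 mice stood behind each age. The deposited table combines the 3 libraries of an age into 1 FPKM value per gene (fragments counted on a gene relative to its transcript length and to the mapped fragments of the library). The values below therefore carry no standard deviation, and error is known only through the p-values and q-values of the authors' own test.

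Flavin-containing monooxygenases sit in the membrane of the endoplasmic reticulum, where they share drug substrates with the cytochrome P450 enzymes. They bind the flavin cofactor FAD, take electrons straight from NADPH without a partner reductase, and place an oxygen atom on soft nitrogen or sulfur atoms of drugs, dietary amines and other small molecules. The liver is a main site of this chemistry. FMO1 takes a broad range of substrates and also oxidises hypotaurine to taurine. FMO2 is best known as the lung form, FMO4 is a scarce and poorly characterised member, and FMO5 is a liver form that acts on ketones, with little activity on the classic amine substrates.

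The start of each coding sequence is shown because it carries a feature that all 4 genes have, the glycine-rich loop that holds FAD. Each stretch is the first 60 coding bases, in the coding direction, of 1 principal transcript per gene in GENCODE M21, an annotation of GRCm38. Capitals mark the in-frame match to GGNNNNGGNNNNNNNGGN, in which the 3 GGN codons all read as glycine.
Fmo1: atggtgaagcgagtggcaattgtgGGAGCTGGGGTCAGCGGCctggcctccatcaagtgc
Fmo2: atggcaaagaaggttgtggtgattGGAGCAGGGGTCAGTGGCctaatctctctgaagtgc
Fmo4: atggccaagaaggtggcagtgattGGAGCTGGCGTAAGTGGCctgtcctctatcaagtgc
Fmo5: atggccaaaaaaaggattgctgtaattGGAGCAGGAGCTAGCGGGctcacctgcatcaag
The match began at codon 9 in Fmo1, Fmo2 and Fmo4 and at codon 10 in Fmo5. The stretches lie in exon 2 of 9 in all 4 genes, on the minus strand at chr1:162859497-162859556 for Fmo1, chr1:162898246-162898305 for Fmo2 and chr1:162809862-162809921 for Fmo4, and on the plus strand at chr3:97629061-97629120 for Fmo5.

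A second loop of the same kind, further into the protein, holds NADPH, and here the genes differed. The 48 coding bases around it are shown with the aligned window of 18 bases in capitals.
Fmo1: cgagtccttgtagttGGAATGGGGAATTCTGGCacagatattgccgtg
Fmo2: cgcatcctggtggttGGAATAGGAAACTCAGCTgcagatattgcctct
Fmo4: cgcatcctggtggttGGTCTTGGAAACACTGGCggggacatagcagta
Fmo5: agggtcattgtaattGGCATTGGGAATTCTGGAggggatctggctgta
The window began at codon 191 in Fmo1, Fmo2 and Fmo4 and at codon 192 in Fmo5, at chr1:162839642-162839689, chr1:162886333-162886380, chr1:162805178-162805225 and chr3:97638931-97638978. It held all 3 GGN codons in Fmo1, Fmo4 and Fmo5 and 2 of the 3 in Fmo2. Over their whole coding sequences, of 1596 bases in Fmo1, 1605 in Fmo2, 1680 in Fmo4 and 1599 in Fmo5, the pairs were identical at 60.7% to 63.4% of the aligned bases. No stretch of 30 bases was shared between any pair of these transcripts, so a read of that length or more without errors has only 1 of the 4 as its source. Against the transcripts of all other genes, Fmo1 and Fmo4 shared no stretch of 30 bases, Fmo2 shared 4 of 4037, and Fmo5 shared 26 of 2405. In Fmo5 the shared stretches of 50 bases covered 74 bases that contain a TC repeat of 50 bases.

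Of the members, 3 lie side by side and 1 stands alone. On chromosome 1 of GRCm38, Fmo4 spans 162793188 to 162813972, Fmo1 162829561 to 162866610 and Fmo2 162874317 to 162898726. All 3 are on the minus strand within 105.5 kb, with gaps of 15.6 kb between Fmo4 and Fmo1 and 7.71 kb between Fmo1 and Fmo2. Fmo5 lies on the plus strand of chromosome 3 at 97628804 to 97655282. No other GENCODE M21 gene overlaps any of the 4 on either strand. Fmo6 and Fmo9, other family genes on chromosome 1 that are not among the 4 members, were listed at 0 FPKM at both ages and were not tested by the authors.

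The members fell into an abundant pair and a scarce pair at both ages. Fmo5 stood highest, with 273 FPKM in young liver and 321 in adult liver, and Fmo1 followed at 183 and 115. Fmo4 was at 8.96 and 5.20 FPKM, and Fmo2 was lowest, at 7.31 and 2.79. The order was Fmo5, Fmo1, Fmo4, Fmo2 at both ages. Whether neighbours in that order differ beyond the spread between libraries was not tested, since the table has 1 value per age. In young liver Fmo5 ranked 370th and Fmo1 534th among the 32597 genes by FPKM, while Fmo4 and Fmo2 ranked 5216th and 5817th. The median of the tested genes was 7.16 FPKM in young liver, below both genes of the scarce pair, and 7.28 in adult liver, above both. The pair is thus scarce beside Fmo5 and Fmo1, and not beside the typical tested gene in young liver. In adult liver Fmo5 ranked 296th, Fmo1 782nd, Fmo4 6906th and Fmo2 8788th.

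**Figure D1:**
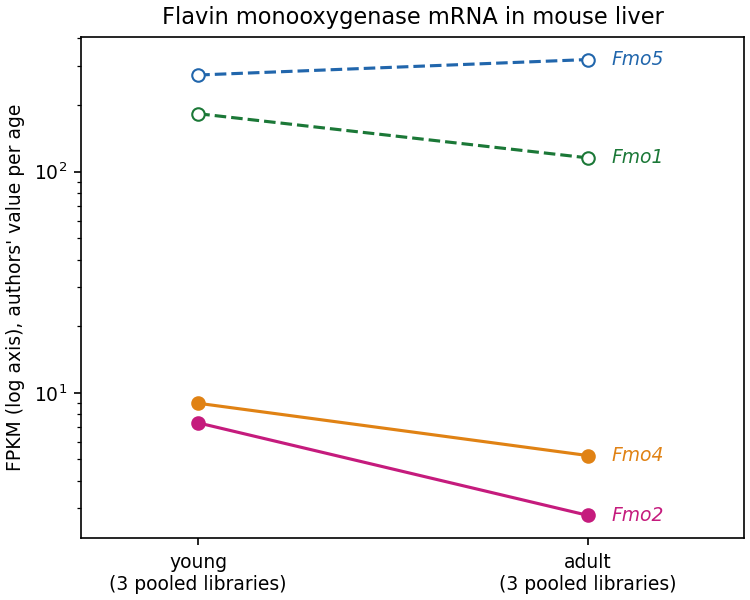
FPKM of the 4 genes on a log axis at the 2 ages, 1 authors' value per age from 3 pooled libraries and so without error bars. Filled points and solid lines mark genes with a q-value under 0.05 and open points with dashed lines the others; Fmo2 goes from 7.31 to 2.79 FPKM and Fmo4 from 8.96 to 5.20, while Fmo5 goes from 273 to 321.

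The comparison of the ages asks how liver expression differs between animals of about a month of age and adults. Here a rise or a fall means a q-value below 0.05 in the authors' deposited table. A gene counts as tested if its deposited status is OK and its FPKM is at least 1 at either age. All 4 members were tested, and all were above 2 FPKM at both ages, so none entered through 1 age alone. The scarce pair fell and the abundant pair was not called. Thus 2 of the 4 members fell and none rose, beside 3.48% of the 11741 tested genes that fell, 3.99% that rose and 7.47% called in either direction. The median log2 fold of the members, computed as log2((adult FPKM + 1)/(young FPKM + 1)), was -0.67, against 0.0033 over all tested genes. Unadjusted p-values in the authors' Cuffdiff test were under 0.05 for 3 members, all lower in adults, beside 16.1% of all tested genes. With 4 members this describes the group and is not a test of it.

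Fmo2, the lung-type form, changed most among the members. It fell from 7.31 FPKM in young to 2.79 in adult liver, to 38.2% of the young level, with a log2 fold of -1.13. The authors' deposited table gives it a q-value of 0.00189, the smallest in the table and one that many genes share. Of the 11741 tested genes, 178 (1.52%), Fmo2 included, had a log2 fold as low or lower. The pseudocount of 1 FPKM weighs on a gene at this level: without it the log2 fold of Fmo2 was -1.39.

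Fmo4, the least studied form, fell from 8.96 to 5.20 FPKM, to 58.0% of the young level. Its log2 fold was -0.68, and the authors' deposited table gives a q-value of 0.0193. A log2 fold as low or lower was seen in 407 tested genes (3.47%), Fmo4 included.

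Fmo1, the broad-range enzyme between Fmo4 and Fmo2 on chromosome 1, went from 183 FPKM in young liver to 115 in adult liver, or 63.1% of the young level. Its log2 fold of -0.66 was close to that of Fmo4 on this scale. Without the pseudocount the log2 folds were -0.66 for Fmo1 and -0.79 for Fmo4. In the authors' Cuffdiff test the p-value of Fmo1 was 0.00395 and its q-value 0.0661, above the threshold. When the authors' p-values were adjusted here by the Benjamini-Hochberg method over the 11741 tested genes, the adjusted p of Fmo1 was 0.0487, so its place on either side of the threshold depends on the adjustment. In a comparison chosen after its values were seen, 25 other tested genes had a mean FPKM within 2-fold of that of Fmo1 and a log2 fold within 0.1 of it, of which 21 were called and 23 had an unadjusted p-value under 0.05. The same windows around Fmo4 held 51 other genes, of which 27 were called and 43 had such a p-value. Around Fmo2 they held 15 other genes, of which 9 were called and 10 had such a p-value. The windows pick genes by level and fold, on which a call depends, so these counts are no support for or against any member's call. That Fmo4 passed and Fmo1 did not is no evidence that the folds of the 2 genes differ, which was not tested.

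Fmo5, the ketone-oxidising form on chromosome 3, had 273 FPKM in young liver and 321 in adult liver. Its log2 fold was 0.23, and in the authors' deposited table its p-value was 0.196 and its q-value 0.723. It was the only member with a higher value in adults, and 17.9% of the tested genes, Fmo5 included, had a log2 fold as high or higher. Around Fmo5, 53 other tested genes matched its level and fold by the same windows, and none of them was called or had an unadjusted p-value under 0.05. As they were picked for a fold like that of Fmo5, this count too is no support for or against a difference.

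**Figure D2:**
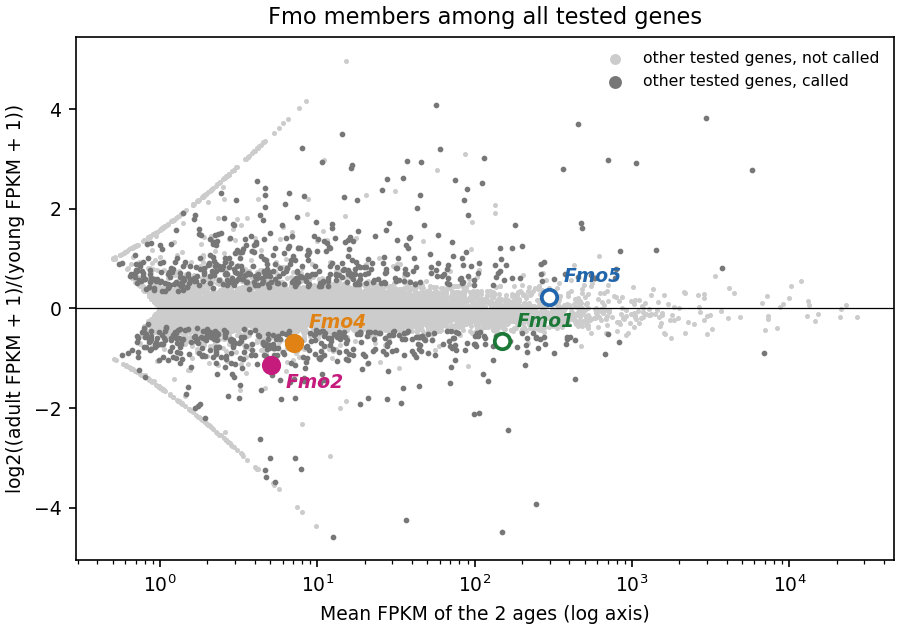
Log2 fold of adult over young against the mean FPKM of the 2 ages on a log axis, for the 11741 tested genes. Grey points are single genes, darker where called; filled coloured points are members that were called and open ones members that were not. Fmo2 (-1.13), Fmo4 (-0.68) and Fmo1 (-0.66) lie below 0 and Fmo5 (0.23) above it.

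The sum of the 4 genes was close at both ages, while its make-up differed. The summed FPKM was 472.5 in young and 445 in adult liver. Fmo5 made up 57.9% of the young sum and 72.2% of the adult sum, and Fmo1 made up 38.7% and 26.0%. Fmo4 contributed 1.90% and 1.17%, and Fmo2 1.55% and 0.627%. The ratio of Fmo5 to Fmo1 was 1.496 in young and 2.78 in adult liver. The ratio of Fmo5 to Fmo2 was 37.4 and 115.2, and that of Fmo4 to Fmo2 was 1.23 and 1.86. Ratios between genes were not tested, as they cannot be given an error from 1 value per age. FPKM counts mRNA per length and says nothing of the amount or activity of the enzymes.

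**Figure D3:**
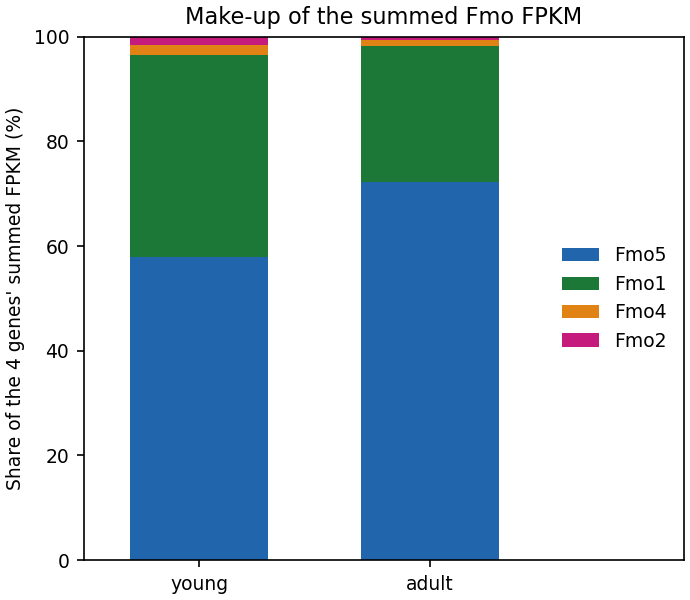
Share of each gene in the summed FPKM of the 4 genes, in percent, for young (sum 472.5 FPKM) and adult liver (sum 445 FPKM), 1 authors' value per age and no error bars. The Fmo5 part goes from 57.9% to 72.2% and the Fmo1 part from 38.7% to 26.0%.

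Few tested genes lie next to the members. Within 250 kb of Fmo4, Fmo1 or Fmo2, leaving out the Fmo family itself, 3 tested genes lay on chromosome 1 and none was called. They were Prrc2c at 4.98 and 5.12 FPKM, Vamp4 at 12.00 and 11.4, and Mettl13 at 2.35 and 1.93, in young and adult liver. Within 250 kb of Fmo5 on chromosome 3 there were 3 tested genes, and none was called. They were Pde4dip at 9.09 and 8.93 FPKM, Chd1l at 2.77 and 2.72 and Sec22b at 38.6 and 36.3. The log2 folds of the 6 neighbours ran from -0.20 to 0.04, and 0 of the 6 had an unadjusted p-value under 0.05 in the authors' Cuffdiff test. With 7.47% of all tested genes called, a count of 0 among 6 genes is near the background.

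Genes listed for the supply of NADPH and FAD, the cofactors that Fmo proteins use, changed in part. Of 12 genes listed for the supply of NADPH, the electron donor, 3 fell and none rose. An unadjusted p-value under 0.05 in the authors' Cuffdiff test was seen for 4, and the median log2 fold was -0.07 against 0.0033 over all tested genes. The list was not limited to the part of the cell in which the Fmo proteins work. For this and the lists below, 3.48% of all tested genes fell, 3.99% rose and 16.1% had such a p-value. In the short lists a count of 0 called is near these shares. The malic enzyme Me1 fell from 87.7 to 57.5 FPKM with a q-value of 0.00189. The mitochondrial isocitrate dehydrogenase Idh2 fell from 60.04 to 41.5 FPKM (q-value 0.0277), and Pgd of the pentose phosphate pathway fell from 22.02 to 15.3 (q-value 0.0250), all 3 q-values from the authors' deposited table. None of the 4 tested genes of riboflavin uptake and FAD synthesis was called; riboflavin kinase, Rfk, was at 33.04 and 28.04 FPKM, and FAD synthetase, Flad1, at 17.9 and 17.5. The median log2 fold of the 4 tested genes was 0.10, and the unadjusted p-value was under 0.05 for 1 of them, the riboflavin transporter Slc52a2, at 1.92 and 2.64 FPKM, which was named after its values were seen.

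Other oxidation systems, mostly of the same membrane, were counted next. None of 7 tested genes listed as microsomal electron carriers was called, with a median log2 fold of 0.02, and for 0 of them was the unadjusted p-value under 0.05. The list also held a cytochrome b5 of the outer mitochondrial membrane, and Pgrmc1, a heme-binding protein that is not itself a carrier. Cytochrome b5, Cyb5a, was at 1882 and 2379 FPKM and Pgrmc1 at 702 and 838. Of 19 tested P450 enzymes of drug metabolism, 2 rose and 1 fell, with a median of -0.04, and 6 had an unadjusted p-value under 0.05. Cyp2a5 rose from 118 to 283 FPKM and Cyp2d9 from 462 to 706, while Cyp2b10 fell from 9.76 to 2.05. Their q-values in the authors' deposited table were 0.00189, 0.0123 and 0.00189. Several of these P450 genes have close copies, so the split of reads between copies is uncertain.

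Flavin enzymes outside the family went both ways. Of 21 tested rows for 20 genes, 1 rose and 2 fell, 7 had an unadjusted p-value under 0.05, and the median log2 fold was -0.11. The aldehyde oxidase Aox1 rose from 15.7 to 28.1 FPKM with a q-value of 0.00189. Squalene epoxidase, Sqle, the flavin monooxygenase of cholesterol synthesis, fell from 52.1 to 34.8 FPKM with a q-value of 0.00760. The polyamine oxidase Paox fell from 17.2 to 11.6 FPKM with a q-value of 0.0364. These q-values are those of the authors' deposited table.

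Pathways that adjoin Fmo substrates were also counted. A list around the path from cysteine to taurine, which yields the hypotaurine that FMO1 can oxidise, also held genes outside that path. Those genes make cysteine, or carry or conjugate taurine. None of the 7 tested genes of the whole list was called, 0 had an unadjusted p-value under 0.05, and the median log2 fold was -0.05. Cysteine dioxygenase, Cdo1, of the path itself was at 1111 and 1075 FPKM. The cystathionine lyase Cth, which makes cysteine, was at 362 and 379. In the liver's own choline and methyl group metabolism, which does not make the Fmo substrate trimethylamine (gut bacteria form it from choline), 2 of 10 genes fell and none rose, 2 had an unadjusted p-value under 0.05, and the median was -0.15. Choline kinase, Chka, fell from 47.3 to 24.1 FPKM and the methyltransferase Bhmt2 from 91.3 to 64.4, with q-values of 0.01005 and 0.0292 in the authors' deposited table. None of 5 transcription factors described as regulators of Fmo genes was called; Hnf4a was at 106 and 112 FPKM and the bile acid receptor Nr1h4 at 53.3 and 57.8, the median log2 fold was 0.11, and 0 of the 5 had an unadjusted p-value under 0.05. Over the 8 lists together, 11 of 83 tested rows were called (13.3%), 3 risen and 8 fallen. Of all tested genes 7.47% were called, 3.99% risen and 3.48% fallen.

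**Figure D4:**
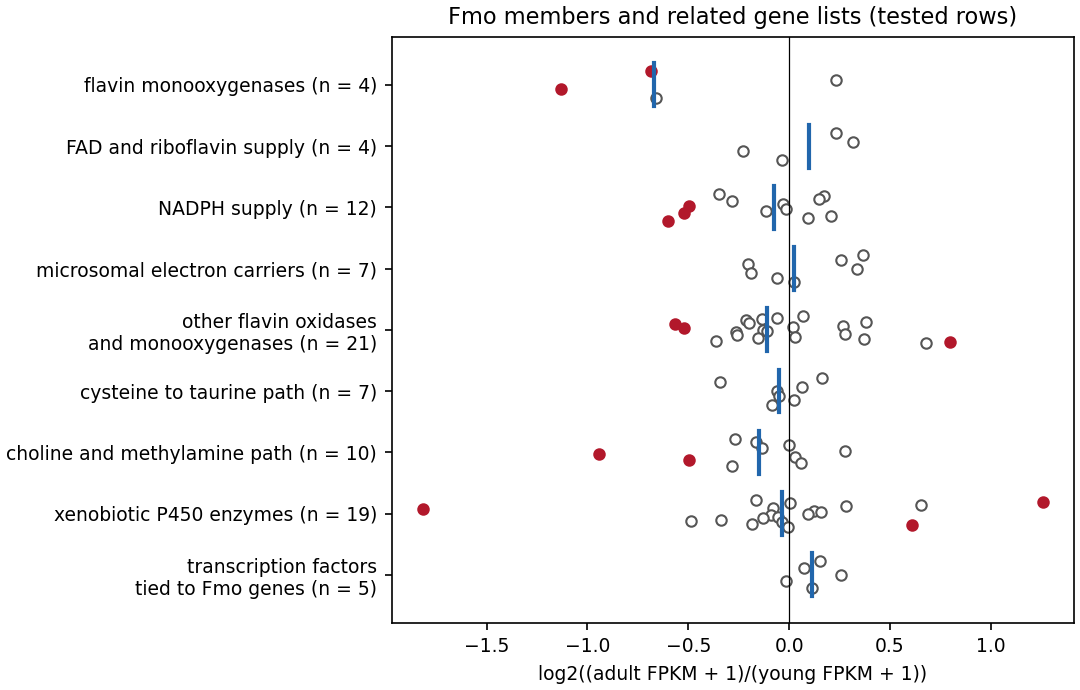
Log2 fold of adult over young for each tested row of the members and of the 8 related gene lists, with n rows per list. Filled red points were called, open points were not, and blue bars are medians; the median is -0.67 for the members and between -0.15 and 0.11 for the 8 lists.

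The libraries were made from whole liver, in which fewer cells of a type and less RNA per cell cannot be told apart. Of 8 hepatocyte markers 6 were tested and 1, Ahsg, fell; the list summed to 31323.5 FPKM in young liver and to 22833 in adult liver, far above that of any other marker list. Albumin, Alb, was listed at 0 with a low-data status, so a 0 in this table can be a failed estimate. The hepatocyte list was lower in adults, with a median log2 fold of -0.36 over its tested genes. Several lists of markers of scarcer cells also had lower values in adults, as Fmo1, Fmo2 and Fmo4 did. The medians were -1.31 for mesothelium, -0.71 for cholangiocytes, -0.31 for stellate cells and fibroblasts and -0.23 for endothelium. For macrophages the median was -0.0059, and for T, NK and B cells 1.51. All 3 tested of 4 mesothelium markers fell, with a summed level of 12.8 FPKM in young and 3.91 in adult liver. Of 7 tested of 8 stellate cell and fibroblast markers 2 fell, Col3a1 and Col1a2, and the summed level was 163 and 143 FPKM. Of 3 tested of 5 cholangiocyte markers 2 fell (summed 50.1 and 43.5 FPKM), and of 6 endothelial markers 1 fell (72.7 and 60.9 FPKM). Of 5 macrophage markers found of 6, 1 rose (164 and 154 FPKM), and both tested of 6 T, NK and B cell markers rose (2.88 and 10.96 FPKM). No marker of these 6 lists of other cell types was at 0. Beside these counts, 3.48% of all tested genes fell and 3.99% rose, and the lists are too short to be set against those shares. Single genes carry most of some sums, as Dcn (111 and 110 FPKM) does for stellate cells and Spp1 (45.1 and 41.3 FPKM) for cholangiocytes. The part of any cell type in the lower Fmo1, Fmo2 and Fmo4 values was not tested.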

How the data were processed

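RNA from 6 libraries of pooled livers, 3 per age, was sequenced to an average of about 30000000 reads, per the labels' protocols. The RNA integrity number was at least 8. TopHat2 2.0.11, Cufflinks 2.2.1, Cuffdiff and the build GRCm38 are named in the submitters' processing notes; no source used here gives the annotation release or the dispersion model. The authors deposited 1 FPKM value per gene and age, per the file headers, and beside it the p-value, the q-value, the score and the log2 fold of their own test. The depth behind each value is not given, so no interval and no test over libraries was computed, and pools vary less than single mice. The authors called genes at a q-value under 0.05 and so did this work. The deposited log2 fold (entered here as a score, because a few genes near 0 FPKM take extreme values) equals the log2 ratio of the FPKM values for the 4 members.

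Folds were computed as log2((adult + 1)/(young + 1)) on genes with status OK and at least 1 FPKM at either age (Python 3.11.15, pandas 2.3.3; adjustment checked on simulated data). This scale understates changes of low genes. Neighbours exclude the Fmo family, of which only the members, Fmo6 and Fmo9 are reported here. Coding sequences were read from GENCODE M21, whose spans of the 4 genes equal those of the table, and aligned with Biopython 1.88. Members and lists were chosen with earlier results of these data known. Genes named from a list were those called, at most 4 with the largest fold, or the 2 with the highest mean FPKM where none was called; 1 other gene is marked in the text.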

Additional observations from a re-analysis of the deposited data

How the results depend on the processing

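A pseudocount of 0.1 FPKM or none changed the size of the folds and cannot by its form change a direction. The direction of all 4 members held under TPM and upper quartile scaling. These scalings moved the median of the tested genes by only -0.0070 and -0.0098, beside a smallest member fold of 0.23, so they could hardly reverse a member. The log2 fold of Fmo2 ran from -1.39 to -1.13 and that of Fmo4 from -0.79 to -0.68. The calls depended on the threshold. At a deposited q-value under 0.01, 1 member fell instead of 2, as Fmo4 (log2 fold -0.68, q-value 0.0193) was no longer called; the number of all fallen genes was 260 instead of 408, and over the 8 lists 3 rows fell instead of 8. Fmo1, with a log2 fold of -0.66, passed at a q-value under 0.1 and under the Benjamini-Hochberg adjustment over the tested genes (adjusted p 0.0487), which made 3 members fallen. The number of all fallen genes rose as well, to 502 at a q-value under 0.1 and to 444 under that adjustment, from 408. With a minimum of 5 FPKM, fewer genes were tested, and 293 rose and 253 fell. Within 1 Mb of the members 1 of 22 tested genes rose, against none of 6 within 250 kb and 3.99% of all tested genes. It was Hsd3b5 on chromosome 3, which starts at 98618636, close to the far edge of the window around Fmo5. No paired analysis was possible because the table has 1 value per age and no column per library; leaving out replicates was not run for the same reason.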
